A study of Homo sapiens with 4 samples.

Results

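The dual-specificity MAP kinase phosphatases studied here are 10 genes: DUSP1, DUSP2, DUSP4, DUSP5, DUSP6, DUSP7, DUSP8, DUSP9, DUSP10 and DUSP16. Their PML ChIP-seq peaks were all rows of the deposited peak table that name one of these genes as nearest, 80 of 68937 peaks. All 10 genes were named in the table, out of 13948 protein-coding genes named there. The genes were chosen by name with earlier results of these data known, and their peaks were selected on presence and nearest gene in that list. PML is the scaffold of PML nuclear bodies. It was pulled down with a Bethyl Laboratories antibody from MDA-MB-231, a human cell line derived from triple-negative breast cancer and grown here in DMEM with serum. The labels give 2 PML ChIP libraries and 2 input libraries, with no treatment or genetic change in either group. The sequences of the duplicates were merged before peaks were called, so the table is 1 peak list with no replicate error, and every comparison is a description with no test. Input libraries served as the reference for the calls. Positions are hg38.

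MAP kinase phosphatases switch MAP kinases off by removing phosphate from both the threonine and the tyrosine of the kinase activation loop. They are commonly sorted by location and substrate. DUSP1 (MKP-1), DUSP2 (PAC-1), DUSP4 (MKP-2) and DUSP5 are nuclear enzymes, and their genes are induced rapidly by growth factors or stress. DUSP6 (MKP-3), DUSP7 and DUSP9 (MKP-4) are cytoplasmic and prefer ERK. DUSP8, DUSP10 (MKP-5) and DUSP16 (MKP-7) prefer the stress kinases JNK and p38 and are found in the cytoplasm or in both compartments. Because several of these genes are transcribed in response to the kinases that their products switch off, they are negative feedback genes of the pathway.

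The promoters of these genes differ in sequence, and the 250 bases before the transcription start are shown for 6 genes on whose promoters the results turn. DUSP1 and DUSP16 hold the highest peak scores among those with a printed sequence, DUSP8 and DUSP10 complete the stress kinase group, DUSP2 is the nuclear enzyme with the lowest score, and DUSP6 has no peak over its start. DUSP10 is shown at both of its RefSeq starts, since a peak covers the upstream start and none covers the downstream start. The sequences are RefSeq's for GRCh38.p14, each read 5′ to 3′ on the strand of the gene. Capitals mark the cAMP response element (CRE) TGACGTCA, its shorter core TGACG, the E-box CACGTG and the TATA box TATAAA, on either strand. The spans are chr5:172771196-172771445 for DUSP1, chr11:1572272-1572521 for DUSP8, chr2:96145441-96145690 for DUSP2, chr12:12562864-12563113 for DUSP16, chr1:221742090-221742339 and chr1:221736901-221737150 for DUSP10, and chr12:89352502-89352751 for DUSP6, all on the minus strand.
DUSP1: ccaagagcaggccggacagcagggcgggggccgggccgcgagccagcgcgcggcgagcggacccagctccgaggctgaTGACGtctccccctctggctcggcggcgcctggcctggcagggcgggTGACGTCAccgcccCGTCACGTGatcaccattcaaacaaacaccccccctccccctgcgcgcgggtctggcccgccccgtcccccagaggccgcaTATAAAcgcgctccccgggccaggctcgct
DUSP8: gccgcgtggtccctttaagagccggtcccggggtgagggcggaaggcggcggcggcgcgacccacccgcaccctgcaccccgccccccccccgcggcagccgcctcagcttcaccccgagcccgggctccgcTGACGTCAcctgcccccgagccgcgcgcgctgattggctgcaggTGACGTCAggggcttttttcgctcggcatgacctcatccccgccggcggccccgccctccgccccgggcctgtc
DUSP2: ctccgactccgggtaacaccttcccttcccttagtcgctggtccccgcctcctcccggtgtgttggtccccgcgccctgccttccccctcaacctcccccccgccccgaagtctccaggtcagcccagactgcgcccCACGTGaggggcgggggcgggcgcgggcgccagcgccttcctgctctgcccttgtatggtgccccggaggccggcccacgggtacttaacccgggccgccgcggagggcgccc
DUSP16: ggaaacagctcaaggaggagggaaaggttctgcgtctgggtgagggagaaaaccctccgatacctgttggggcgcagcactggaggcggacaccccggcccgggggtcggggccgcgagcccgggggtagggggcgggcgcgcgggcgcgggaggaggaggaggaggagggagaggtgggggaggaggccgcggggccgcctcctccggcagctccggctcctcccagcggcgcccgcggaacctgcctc
DUSP10 upstream start: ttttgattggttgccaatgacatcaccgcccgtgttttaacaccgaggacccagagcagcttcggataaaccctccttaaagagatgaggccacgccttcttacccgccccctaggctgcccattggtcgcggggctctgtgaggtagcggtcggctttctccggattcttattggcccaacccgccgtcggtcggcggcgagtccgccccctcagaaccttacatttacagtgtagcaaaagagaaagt
DUSP10 downstream start: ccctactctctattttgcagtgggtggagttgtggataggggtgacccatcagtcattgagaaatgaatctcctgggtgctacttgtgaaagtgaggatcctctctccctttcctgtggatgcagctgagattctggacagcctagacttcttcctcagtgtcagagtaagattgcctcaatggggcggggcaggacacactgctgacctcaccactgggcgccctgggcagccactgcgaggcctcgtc
DUSP6: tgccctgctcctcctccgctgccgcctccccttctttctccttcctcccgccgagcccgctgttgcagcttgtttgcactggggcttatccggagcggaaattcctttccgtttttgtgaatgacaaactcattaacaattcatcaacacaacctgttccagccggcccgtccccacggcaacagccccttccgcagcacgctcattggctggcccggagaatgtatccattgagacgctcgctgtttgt

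The full CRE was found at DUSP1 and DUSP8 and at no other phosphatase promoter in the sequence table. The table held windows of 250 bases before to 50 after a start for 8 of the 10 genes, with 2 starts each for DUSP9 and DUSP10, giving 10 windows. DUSP4 and DUSP5 had no window, so of the nuclear group only DUSP1 and DUSP2 were searched for motifs. DUSP1 had 1 CRE, from 125 to 118 bases before the start. DUSP8 had 2, from 118 to 111 and from 74 to 67 bases before the start. Among all 22199 protein-coding promoter windows of the same length, 2.26% held a CRE. The CRE is the element bound by CREB and ATF proteins, which stress and cAMP signals activate. Its core TGACG, which overlaps every CRE on both strands, was also found apart from the CRE at DUSP1, from 172 to 168 and from 111 to 107 bases before the start, the nearer match overlapping an E-box. At the downstream DUSP10 start a TGACG match spans the start itself and so is not in the bases printed. Of all windows, 27.9% held this core.

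The remaining motifs were sparse at these promoters apart from the GC box. An E-box lay 113 to 108 bases before the DUSP2 start and 108 to 103 before the DUSP1 start (8.34% of all windows). DUSP1 alone among the windows of these genes held TATAAA, from 30 to 25 bases before its start (9.47% of all windows). The GC box GGGCGG was found in 9 of the 10 windows (56.3% of all windows), DUSP6 being the exception. The AP-1 site TGANTCA (6.15% of all windows), the ETS core CCGGAA (21.2%), the THAP11 and ZNF143 core ACTACAA (2.84%) and the CArG box (1.25%) were in none of the 10. No match says only that these letters are not in the window. The windows had a median GC content of 74.2%, against 62.3% over all protein-coding windows. DUSP10 (55% at both starts) and DUSP6 (58.3%) were the least GC-rich.

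Every phosphatase gene had a PML peak at its promoter, defined as a peak centred within 1000 bp of a transcription start. Such a peak was found for 78.6% of the protein-coding genes named in the table, and for 54.4% of all RefSeq protein-coding genes. The rule for the members used the table that names them, so their count is given beside this background and nothing is read from it. The 10 genes held 13 promoter peaks, since DUSP4, DUSP7 and DUSP9 had 2 each. That is 3 of 10 genes, where 9.11% of all genes with a promoter peak had more than 1. The peak score is the authors' whole number per peak, from 13 upwards in this list, and it serves here only to rank peaks. The median over the 10 genes of the highest promoter score was 94, and the median for all 10958 genes with such a peak was 63. Above the upper quartile of all genes, a score of 106, were 4 of the 10 (24.3% of all genes with a promoter peak): DUSP1, DUSP5, DUSP10 and DUSP16.

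**Figure D1:**
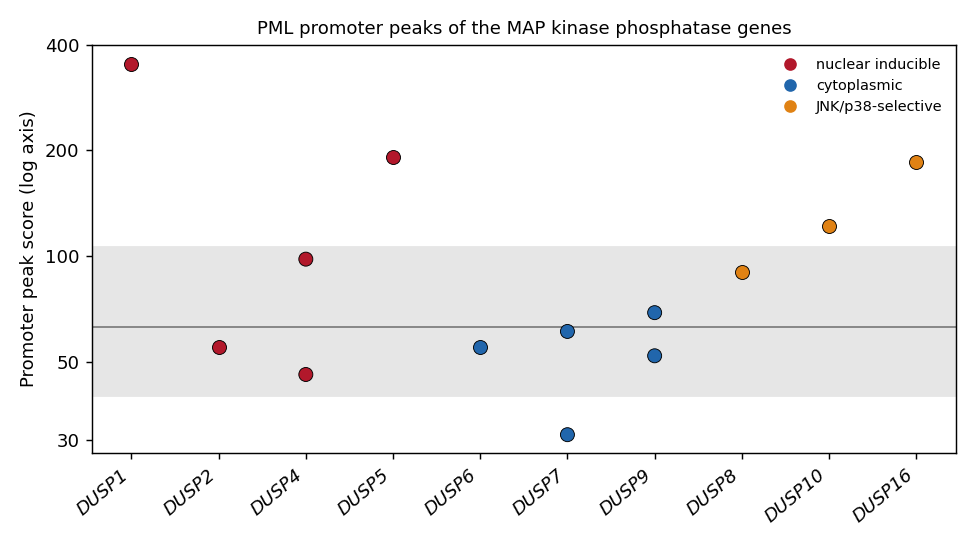
Scores of the 13 promoter peaks (log axis), 1 point per peak, by gene and enzyme group; the grey line is the median (63) and the band the quartiles (40 to 106) of the highest promoter score of every gene with a promoter peak. DUSP1 stands highest at 353, and the 5 peaks of the cytoplasmic enzymes lie between 31 and 69.

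Among the nuclear inducible enzymes, DUSP1 had the strongest promoter peak and DUSP2 the weakest. The DUSP1 peak on chromosome 5 spanned 172770100 to 172772724 with a score of 353. It ranked 133 in the list of 68937 peaks, and DUSP1 ranked 66 among the 10958 genes. The peak was 2624 bp wide and ran from 1529 bp before to 1095 bp after the start. It covered all 300 bases of the RefSeq promoter window, and with them the CRE, the E-box and the TATA box shown above. It also covered the start of LOC105377730, a RefSeq gene on the opposite strand.

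DUSP5, which dephosphorylates ERK in the nucleus, had a promoter peak on chromosome 10 from 110497462 to 110498835, over exon 1, with a score of 191 and a width of 1373 bp. DUSP5 ranked 684 among the genes, within the highest 6.24%. DUSP2, known best from activated lymphocytes, had a promoter peak on chromosome 2 from 96144894 to 96145533, also in exon 1, with a score of 55 and a width of 639 bp. It reached only 93 bp upstream of the start, covering 143 of the 300 bases of the window, so the E-box of the DUSP2 sequence lay outside the peak. DUSP2 ranked 6146, below the median gene.

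DUSP4 had promoter peaks only downstream of its main start. The peak with a score of 98 lay on chromosome 8 from 29349449 to 29350604, over exon 1, and began 80 bp after the start. The other, with a score of 46, lay from 29348720 to 29349072 and was assigned by the table to the start of a shorter DUSP4 transcript. This peak covered that start, and its centre lay 91 bp upstream of it. DUSP4 ranked 3033 among the genes.

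The cytoplasmic ERK phosphatases had promoter scores close to the middle of all genes. DUSP6, the classical feedback phosphatase of ERK, had a chromosome 12 peak in exon 1, from 89351483 to 89351988, with a score of 55. This peak began 513 bp after the start. A stronger peak with a score of 68 lay upstream, centred 1397 bp from the start and thus beyond the promoter limit, over a CpG island from 89353412 to 89354385. The DUSP6 start fell in the 1424 bp gap between these peaks, and no base of its promoter window was covered.

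DUSP7 also had a pair of peaks, of which the one after the start scored higher. The peak over the start, on chromosome 3 from 52056448 to 52057273, had a score of 31, and that in intron 1, over a CpG island from 52055380 to 52056157, had a score of 61. DUSP9, known for its expression in placenta, had a peak at each of its 2 starts on chromosome X. The peak at the upstream start, from 153641616 to 153644159, had a score of 69, and that at the downstream start, from 153646222 to 153648623, had 52. Both were broad, at 2543 and 2401 bp, and both covered all 300 bases of their windows. Broad promoter peaks at DUSP9 thus came with scores near the median of all genes.

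The enzymes that prefer JNK and p38 all had broad peaks over their starts. DUSP16, a JNK phosphatase that shuttles between nucleus and cytoplasm, had a chromosome 12 peak at its 5′ UTR exon, from 12561611 to 12563623, with a score of 185 and a width of 2012 bp. DUSP10 had a peak on chromosome 1 from 221741333 to 221743455 with a score of 122 and a width of 2122 bp, and the downstream DUSP10 start had none. DUSP8 had a peak on chromosome 11 from 1570761 to 1573028 with a score of 90 and a width of 2267 bp. The DUSP8 peak covered both CREs and also the start of KRTAP5-AS1, a noncoding RNA on the opposite strand, to which the annotation column gives it. Whether the signal belongs to either gene cannot be told from the table.

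Many of these promoter peaks were broad. Of the 13 promoter peaks, 6 were at least 2000 bp wide, a limit chosen after their widths were seen, against 4.94% of all promoter peaks. They belonged to 5 of the 10 genes (DUSP1, DUSP8, DUSP9, DUSP10 and DUSP16), where 5.48% of all genes with a promoter peak had one so wide. Such widths were not particular to the phosphatases. Among the Sprouty and SPRED feedback genes described below, the strongest promoter peaks of SPRY4, SPRED2 and SPRED1 were 3188, 2291 and 2057 bp wide. That of SPRY2, at 1696 bp, was below the limit. The median width of the promoter peaks was 1373 bp, against 738 bp over the list. The start from which the strongest promoter peak was measured was covered by a peak in 8 of the 10 genes. DUSP4 and DUSP6 were the exceptions, though the start of the shorter DUSP4 transcript was covered. The share of covered starts over all genes was not computed, so nothing is read from this count. In the sequence table, a peak overlapped 8 of the 10 windows of these genes. The share over all protein-coding windows, genes without a promoter peak included, was 51.3%. Of the 10 windows, those of DUSP6 and of the downstream DUSP10 start had no peak.

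**Figure D2:**
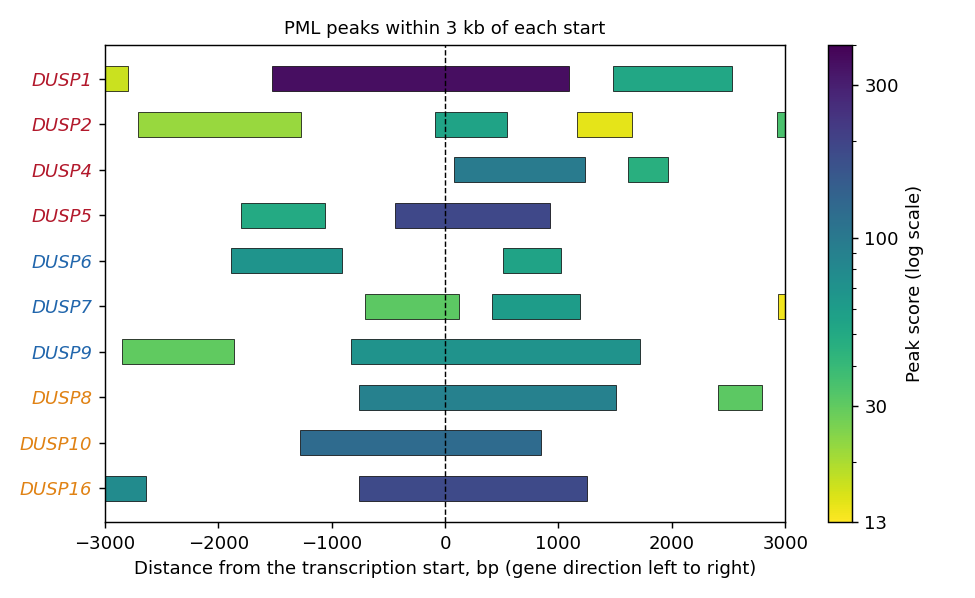
Peaks within 3 kb of the transcription start of each gene, drawn to scale as bars in the direction of the gene, with the score as colour (log scale). Bars cover the start (dashed) in 8 genes, while at DUSP4 and DUSP6 the nearest peaks begin 80 and 513 bp after it; the downstream DUSP9 promoter lies beyond the right edge.

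Setting the nuclear inducible enzymes beside the cytoplasmic ones gave a higher median with overlapping ranges. The highest promoter scores were 353, 191, 98 and 55 for DUSP1, DUSP5, DUSP4 and DUSP2, with a median of 144.5. They were 69, 61 and 55 for DUSP9, DUSP7 and DUSP6, with a median of 61. The difference of medians was 83.5, but DUSP2 and DUSP6 had the same score, so the groups were not separated. The difference was 37 without DUSP1 or without DUSP5, and 130 without DUSP2 or without DUSP4, and so depended on which nuclear enzyme was counted. The JNK and p38 enzymes, at 185, 122 and 90, had a median of 122, and each scored above every cytoplasmic enzyme. Genes of 1 merged list are not replicates, so no test was made, and neighbours in this order have no error by which they could be told apart. Width followed another order: the strongest promoter peak per gene had a median width of 1264 bp in the nuclear group, 777 bp in the cytoplasmic group and 2122 bp in the JNK and p38 group.

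Away from promoters, peaks were many around some phosphatase genes and almost absent around others. Of the 80 peaks, 67 (83.8%) were distal, meaning centred over 1000 bp from a start, against 80% of the whole list. They belonged to 9 of the 10 genes, where 65.9% of protein-coding genes named in the table had a distal peak. The limit cut between the DUSP7 peak at 803 bp, the farthest promoter peak, and the DUSP6 peak at 1397 bp, the nearest distal peak. The distal peaks had a median score of 32, against 31 over all distal peaks of the list, and their highest score was 84. Their median width of 465 bp compared with 401 bp over all distal peaks. In each gene with distal peaks the strongest promoter peak scored higher than any distal peak, except in DUSP6.

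The nuclear group held 38 distal peaks, the cytoplasmic group 13 and the JNK and p38 group 16. DUSP5 had 19, more than any other of these genes, and 1.76% of protein-coding genes named in the table had as many. Of these, 16 lay upstream, 14 of them more than 20 kb away, in intergenic DNA reaching 87069 bp from the start. Their scores ran from 14 to 70. The highest of the DUSP5 distal peaks, with a score of 70, lay 37540 bp upstream, from 110459961 to 110460774.

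DUSP1 had 11 distal peaks, 8 upstream and 3 downstream, all within 30515 bp of the start. The highest had a score of 74 and lay 29249 bp upstream, from 172800205 to 172800684, against 353 for the promoter peak of DUSP1. DUSP2 had 8, with scores from 15 to 45, 6 of them upstream within 18928 bp. DUSP4 had none. The nuclear group thus included both the gene with the most distal peaks and the gene without any.

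In the cytoplasmic group, DUSP9 had 9 distal peaks, all with scores from 25 to 42, of which 7 lay upstream. DUSP7 had 3, all downstream, with scores from 14 to 42. One of them, 9974 bp from the start and from 52045557 to 52047637, was 2080 bp wide, a width reached by 0.883% of all distal peaks. DUSP6 had only the peak over the upstream CpG island described above. Distal peaks thus ranged from 1 to 9 per gene in the cytoplasmic group and from 0 to 19 in the nuclear group.

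In the JNK and p38 group, DUSP8 had 7 distal peaks, all downstream of the start, 5 of them within the gene. Its highest, in intron 3 from 1558837 to 1560657, had a score of 83 and a width of 1820 bp, close to the 90 of the promoter peak. DUSP16 had 6, with scores from 19 to 84. The highest of the DUSP16 distal peaks lay at the transcription end site, 90225 bp from the start, from 12472346 to 12472930. A DUSP16 peak in the last exon, exon 7, from 12476862 to 12477867, had a score of 47. The 2 farthest DUSP16 peaks lay beyond the end of the gene, in an intron of another transcript, with scores of 77 and 19. DUSP10 had 3 with scores from 28 to 31, between 173278 and 187766 bp from its downstream start. None lay in the 40.7 kb of the gene beyond the promoter peak. Assignment of peaks this far to DUSP10 rests on distance alone.

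**Figure D3:**
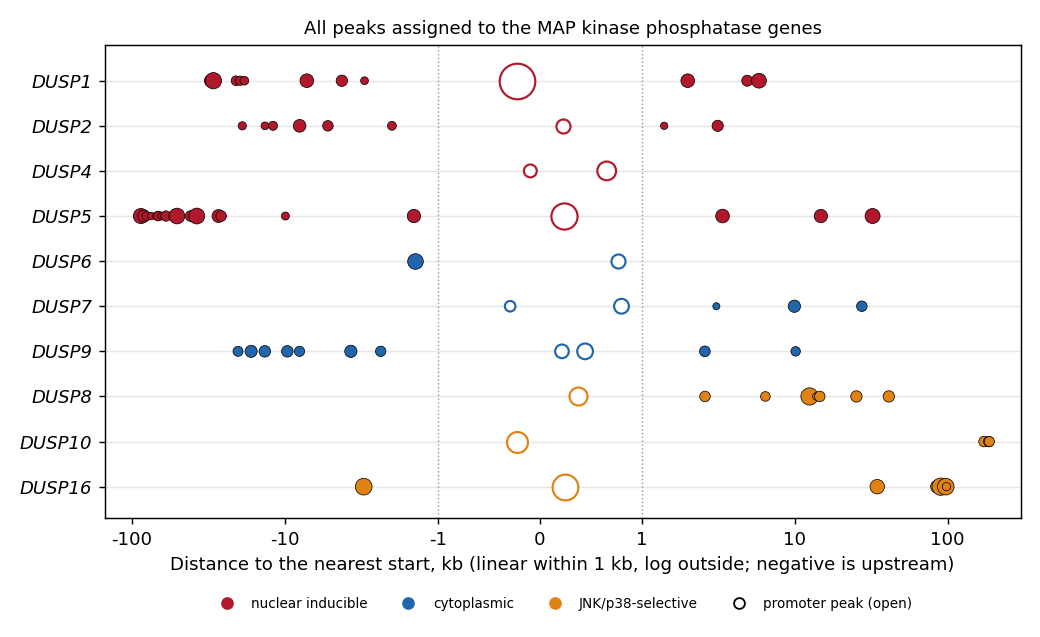
All 80 peaks by distance to the nearest start (linear within 1 kb, log outside; negative is upstream), with symbol area in proportion to the score, open for the 13 promoter peaks and filled for the 67 distal peaks. DUSP5 carries 16 distal peaks upstream, DUSP7, DUSP8 and DUSP10 carry all of theirs downstream, and DUSP4 has none.

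The surroundings of these genes differed in how many peaks they held. Within 100 kb of the start, counting the gene's own peaks and those assigned to other genes, there were 58 peaks at DUSP9, 50 at DUSP1, 30 at DUSP2 and 24 at DUSP5. There were 15 at DUSP7, 13 at DUSP8 and 11 at DUSP16, and only 3 at DUSP4, 2 at DUSP6 and 1 at DUSP10. The median over 15843 protein-coding starts was 5, with quartiles of 2 and 13. As many peaks as at DUSP9 were found near 0.985% of starts, and as many as at DUSP1 near 1.87%. The order was not that of the distal counts: DUSP9 had 9 distal peaks among the most crowded surroundings and DUSP5 had 19 among fewer peaks. Since each gene's own peaks are part of these counts, the part of the local density in the distal counts was not tested. Promoter score did not follow this count in every gene: DUSP10 and DUSP16 scored higher than DUSP9 with far fewer peaks around them.

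Other genes of the pathway were taken from lists of 45 genes besides the phosphatases above. Of these, 31 had a promoter peak, 14 of them with a highest score above the median of all genes. Some listed genes were named for no peak, so the counts per list stand beside the 54.4% of all RefSeq protein-coding genes. Nothing is read from these counts. Of 10 MAP kinases, the substrates of these phosphatases, 8 had a promoter peak, with a median highest score of 51.5. MAPK9, which encodes JNK2, had 435, the highest score of all listed genes, and MAPK8, which encodes JNK1, had 107. MAPK10 and MAPK13 had no promoter peak by this assignment. Of 7 MAP kinase kinases, 6 had one, with a median of 45, led by MAP2K1 at 221, MAP2K2 at 106 and MAP2K3 at 48. MAP2K6 had none.

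Atypical dual-specificity phosphatases mostly lack the kinase-binding domain of the MAP kinase phosphatases. Of 18 genes listed with them, 10 had a promoter peak, with a median of 52. DUSP12 had 168, DUSP22 147 and DUSP15 136. Of the 3 tyrosine phosphatases that bind MAP kinases through a kinase interaction motif, only PTPN5 had one, at 48, while PTPN7 and PTPRR were named for no peak. The Sprouty and SPRED genes, whose products restrain the pathway upstream of ERK and which are likewise feedback genes, had a promoter peak at 6 of 7, with a median of 113.5. SPRED1 had 163, SPRY4 132 and SPRY2 114, and SPRED3 had none. The Sprouty and SPRED median thus lay between those of the cytoplasmic phosphatases (61) and the nuclear phosphatases (144.5). These medians cover only genes with a promoter peak, and no list was compared by a test.

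**Figure D4:**
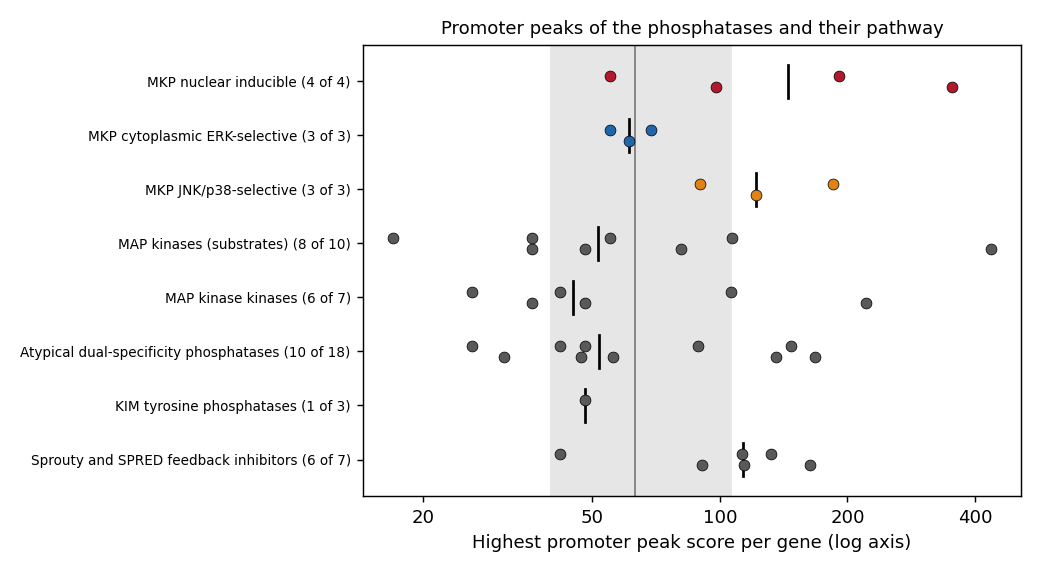
Highest promoter peak score per gene (log axis) for each list, 1 point per gene with a promoter peak, with the list median as a bar and the number of genes with a promoter peak beside each name. The grey line and band are the median (63) and quartiles (40 to 106) over all genes; the medians of the nuclear and of the JNK and p38 phosphatases and of the Sprouty and SPRED genes lie above the band.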

How the data were processed

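The samples were 2 PML ChIP and 2 input libraries of MDA-MB-231 cells, whose duplicates were merged by the authors, per the labels. Per the submitters' processing notes, the build was hg38 and the tools were MACS2 2.1.1.20160309, HOMER 4.11.1, BWA 0.7.12, Trimmomatic 0.36 and Picard 2.0.1, with no settings given. The deposited peak score is a whole number whose scale the file headers do not state. The deposited distances and positions are in bp. Read depth is unknown, so no interval is given, and enrichment over input was not recomputed.

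Genes were taken from the gene name column, and width is end minus start. All 10 members and the 45 other list genes were matched to RefSeq GRCh38.p14 by gene ID. The table's starts met RefSeq starts exactly at 7 of the 8 genes with promoter sequence, and at the upstream DUSP10 start lay 87 bp from it. Members and lists were chosen with earlier results of these data known. SPRED2 is named for its width. Otherwise the text names all members, and from each other list the 3 highest scores and up to 5 genes without a promoter peak. A gene that this rule names is not reported here. The step that takes the highest promoter score per gene was tested on simulated data. The authors' assignment of peaks to genes was not tested. Calculations used Python 3.11.15, numpy 2.4.6 and pandas 2.3.3. Alternatives changed the window, the score minimum, how peaks were assigned, the value per gene, which genes were counted, and the background.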

Additional observations from a re-analysis of the deposited data

How the results depend on the processing

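No replicate could be left out and no paired analysis was possible because the deposited table merges the duplicates. With a 500 bp window, 9 of 10 genes had a promoter peak, DUSP6 being lost, and the median highest score was 90. The nuclear minus cytoplasmic difference was then 73, with only DUSP7 and DUSP9 left in the cytoplasmic group. With a 5000 bp window the difference was 76.5. With sums over all peaks of a gene it was 348, and with each gene left out in turn it ran from 37 to 130. Only peaks scoring at or above the list median left 32 of 67 distal peaks and all 10 promoter calls. The gene name or RefSeq span together gave the same values for the 10 genes and 34, not 31, of the other list genes with a promoter peak. Per gene, the highest score changed at DUSP4 (46) and DUSP7 (31) with 500 bp and at DUSP6 (68) with 5000 bp. The nuclear median was higher under each of these alternatives, but they reuse the same scores and are no independent support.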

Other observations

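Repeats were named for 8 of the 67 distal peaks (11.9%), against 30.8% of all distal peaks of the list. The highest-scoring of them lay 3044 bp upstream of DUSP16 on an SVA_D element, with a score of 78. DUSP5 had 3, on an L2c, an L1PA6 (score 47) and an AluJr element, DUSP9 had 2 on L1 elements, DUSP1 had 1 on a MIRc element and DUSP10 had 1 on an LTR17 element, with a score of 31. A CpG island was named for 6 of the 80 peaks. The share over the whole list was not computed, so nothing is read from this count. One of the 6 was the most distant downstream peak of DUSP5, with a score of 63 and a width of 1078 bp. Intergenic DNA held 51 of the 67 distal peaks (76.1%), against 43.7% of all distal peaks of the list. DUSP5 had 18 of them, DUSP1 10, DUSP9 8 and DUSP2 6. The genes of DUSP1 and DUSP2 span 3.1 and 2.27 kb, and those of DUSP5 and DUSP9 13.6 and 8.89 kb. A link of the intergenic share with gene length was not tested.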
